A study of Rattus norvegicus with 18 samples.

Results

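The genes described here are 80 Ensembl genes whose heart RNA was at least doubled in the spontaneously hypertensive rat, on the scale log2(FPKM + 1), where FPKM divides the fragments of a gene by its length in kilobases and by sequencing depth. They were found among 37262 genes in the deposited values, of which 20360 carried Ensembl identifiers. A gene had to reach 1 FPKM in at least 6 of 18 libraries, which left 12396 Ensembl genes. The mean of its 6 SHR values then had to exceed the mean of its 6 WKY values by at least 1 in log2(FPKM + 1), with every SHR value above every WKY value. The rule leaves out 1 identifier. A difference of 1 was reached by 90 of the other genes, and 10 of those (differences of 1.03 to 1.55) had groups that overlapped and are not members.

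The study sequenced rRNA-depleted RNA from rat hearts in 3 groups of 6 libraries. WKY (Wistar-Kyoto) rats, labelled normal, are the first group, and the spontaneously hypertensive rat SHR given NS is the second. The third group, called QDG, is SHR given QDG. The labels expand neither NS nor QDG, give no age, dose or duration, and do not say whether WKY also received NS, so NS and strain cannot be told apart in SHR against WKY. Nothing in them says that each library came from its own animal, and the p-values below therefore reflect the variation among libraries, which may be technical. The files pair no identifier with a gene name, and 0 of the 80 identifiers matched the reference table used here. The members are therefore numbered from 1 (largest SHR minus WKY difference) to 80 (smallest), and the identifier is given for 4 of them. For the same reason the label heart was not checked against marker genes, and no role is stated for any member.

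As background, SHR is an inbred strain in which blood pressure climbs with age without surgery or salt loading, and the heart muscle thickens in response to the load. WKY is an inbred strain with normal blood pressure derived from the same outbred stock, and is the usual comparison. Separately bred inbred strains differ at many places in the genome, so a comparison between them holds differences that go with blood pressure together with differences that do not. Whole heart tissue mixes muscle cells with fibroblasts, vessel cells and blood cells. A lower level in such bulk RNA can come from fewer cells of a type or from less RNA per cell, which cannot be told apart here.

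The members were chosen by their SHR and WKY values, so the strain difference is described without a test. The 80 differences ran from 1.01 to 4.25 in log2(FPKM + 1), with a median of 1.41, where the median over all 17397 genes kept was -0.0094. Most members were near the lower end: 47 lay between 1 and 1.5, 12 between 1.5 and 2, 15 between 2 and 3, and 6 at 3 or more. In FPKM, the ratio of the SHR mean to the WKY mean ran from 2.03 to 140 over the 70 members with no WKY value at 0, with a median of 3.83. Just inside the threshold, members 80, 79 and 78 had differences of 1.01, 1.01 and 1.02. Member 78 averaged 1.89 FPKM across WKY, 4.84 across SHR and 3.69 across QDG, member 79 8.53, 18.2 and 17.3 FPKM, and member 80 2.39, 5.79 and 5.65 FPKM. Just outside the threshold, the 3 nearest Ensembl genes with groups that did not overlap had differences of 1.00 (0.999844 before rounding), 0.993 and 0.993. The size of the set depends on the pseudocount: with 0.1 or 0.01 in place of 1, 140 or 158 genes met the rule, all 80 members among them.

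Over all genes kept, 12.2% were called higher in SHR than in WKY with limma (adjusted p under 0.05), and 6.41% had every SHR value above every WKY value. Only 0.644% combined that separation with a difference of 1, NONCODE genes (from a catalogue of noncoding transcripts) included. The members ranged from low to high genes. Their mean over the 18 libraries ran from 0.741 to 4035 FPKM, with a median of 6.03 FPKM against 7.18 for all Ensembl genes kept. Members at 100 FPKM or more made up 11.2% of the set, against 3.95% of the Ensembl genes kept. This mean counts the SHR values, which the rule chose to be high, so the larger share is partly built in. Members 10 and 50 are in that class with WKY means of 72.6 and 98.9 FPKM. From 20 to under 100 FPKM the shares were 8.75% and 16.8%.

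**Figure D1:**
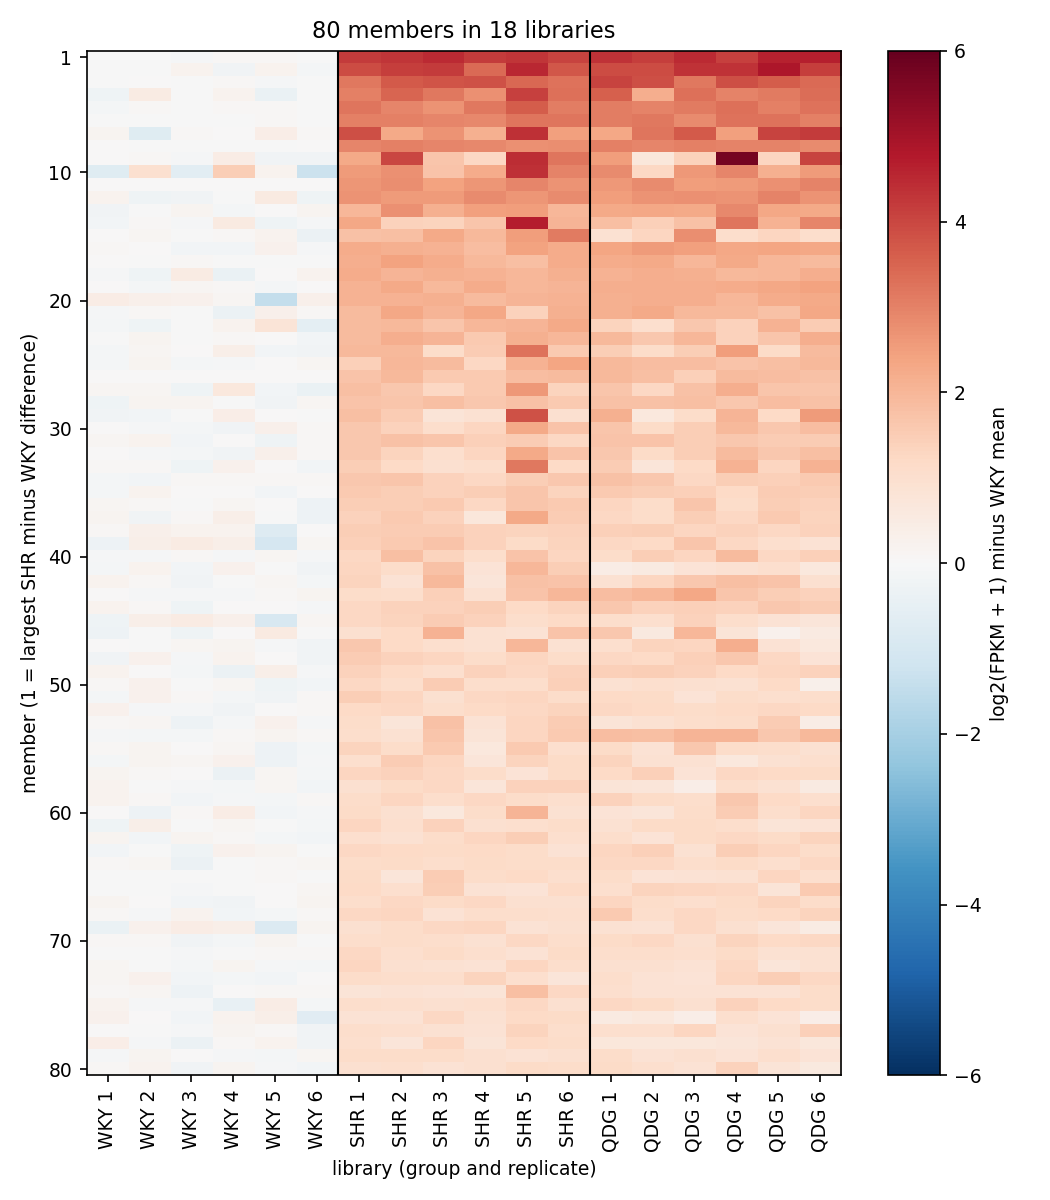
Heat map of the 80 members (rows, member 1 at the top) in the 18 libraries (columns), as log2(FPKM + 1) minus the member's WKY mean. All SHR columns are red for every member by the rule; the QDG columns keep nearly the same shade, and SHR replicate 5 is darker for some rows.

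One group of members was close to absent in the WKY libraries and present in every SHR library. For 6 members (6, 8, 11, 17, 26 and 65) all 6 WKY values were under 0.1 FPKM, and 2 of these, members 11 and 26, were listed at 0 in all 6 WKY libraries. Member 11 was at 5.22, 6.00, 4.31, 5.22, 6.70 and 5.49 FPKM in SHR replicates 1 to 6 and at 5.02, 6.04, 4.61, 4.85, 5.72 and 6.85 FPKM in the QDG libraries. The SHR and QDG values of this member overlap, and both groups stand clear of WKY. Member 26 was lower, at 2.39 ± 0.369 FPKM in SHR and 2.48 ± 0.411 in QDG (SD, n = 6 each). No fold is given for members 11 and 26, since WKY is listed at 0.

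Member 6 was listed at 0 in 5 WKY libraries and at 0.0455 FPKM in WKY replicate 5, and its levels were 7.37 ± 0.763 FPKM in SHR and 7.76 ± 0.944 after QDG (SD, n = 6 each). Member 8 was at 0 to 0.0530 FPKM in WKY, and averaged 6.55 ± 0.559 FPKM across SHR and 6.95 ± 0.419 across QDG (SD, n = 6 each). For members 6, 8, 11 and 26 the SHR and QDG ranges overlapped, and no library of either group came near the WKY level. Member 17 reached 3.49 ± 0.690 FPKM in SHR and 3.41 ± 0.528 in QDG, and member 65 only 1.19 ± 0.395 and 1.02 ± 0.252 (SD, n = 6 each). Member 65 passed the filter on low values only with its QDG values counted. For all 6 members the QDG minus SHR difference was between -0.11 and 0.08 in log2(FPKM + 1), with limma adjusted p of 0.695 or more.

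The member with the largest difference, ENSRNOG00000003537, had a trace in WKY. Its WKY values were 0.0411, 0.0477, 0, 0.132, 0.122 and 0.0582 FPKM. In SHR it was at 18.6, 19.5, 22.5, 18.6, 19.6 and 16.9 FPKM, and in QDG at 20.3, 17.8, 22.5, 17.0, 24.8 and 26.4 FPKM. The SHR and QDG ranges overlap and neither comes near WKY. The QDG minus SHR difference was 0.14 (95% interval -0.05 to 0.33, limma adjusted p = 0.660).

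Members 3 and 5 had the same shape, with WKY means of 0.0830 and 0.0980 FPKM, SHR means of 11.6 and 8.72 FPKM and QDG means of 13.0 and 8.58 FPKM. Among the 70 members with no WKY value at 0, member 3 had the largest ratio of means, 140. Member 2 was present in WKY at 1.35 ± 0.290 FPKM and reached 37.0 ± 10.2 in SHR and 44.8 ± 11.7 in QDG (SD, n = 6 each). For member 12 the WKY level was 2.27 ± 0.766 FPKM, the SHR level 19.6 ± 1.75 (SD, n = 6 each), and the QDG values lay between 17.1 and 24.4. Member 7 was at 0.0169 to 1.17 FPKM in WKY, at 6.40 to 33.1 in SHR (median 9.06) and at 7.26 to 29.4 in QDG (median 17.4). For members 2, 3, 5, 7 and 12 the QDG and SHR ranges overlapped.

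Other members were well expressed in both strains. Of the 80, 49 had a WKY mean of at least 1 FPKM, and 10 had an SHR mean of at least 100 FPKM. Member 56 averaged 50.4 ± 6.83 FPKM across WKY, 116 ± 21.1 across SHR and 98.2 ± 16.4 across QDG (SD, n = 6 each). Member 20 was steady within SHR and QDG, at 97.1 ± 5.43 and 106 ± 6.72 FPKM (SD, n = 6 each). In WKY it was at 30.9, 28.4, 27.2, 24.5, 7.88 and 28.1 FPKM, so that WKY replicate 5 stood far below the other 5. Without that library the WKY mean was 27.8 FPKM and the SHR minus WKY difference went from 2.05 to 1.77.

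**Figure D2:**
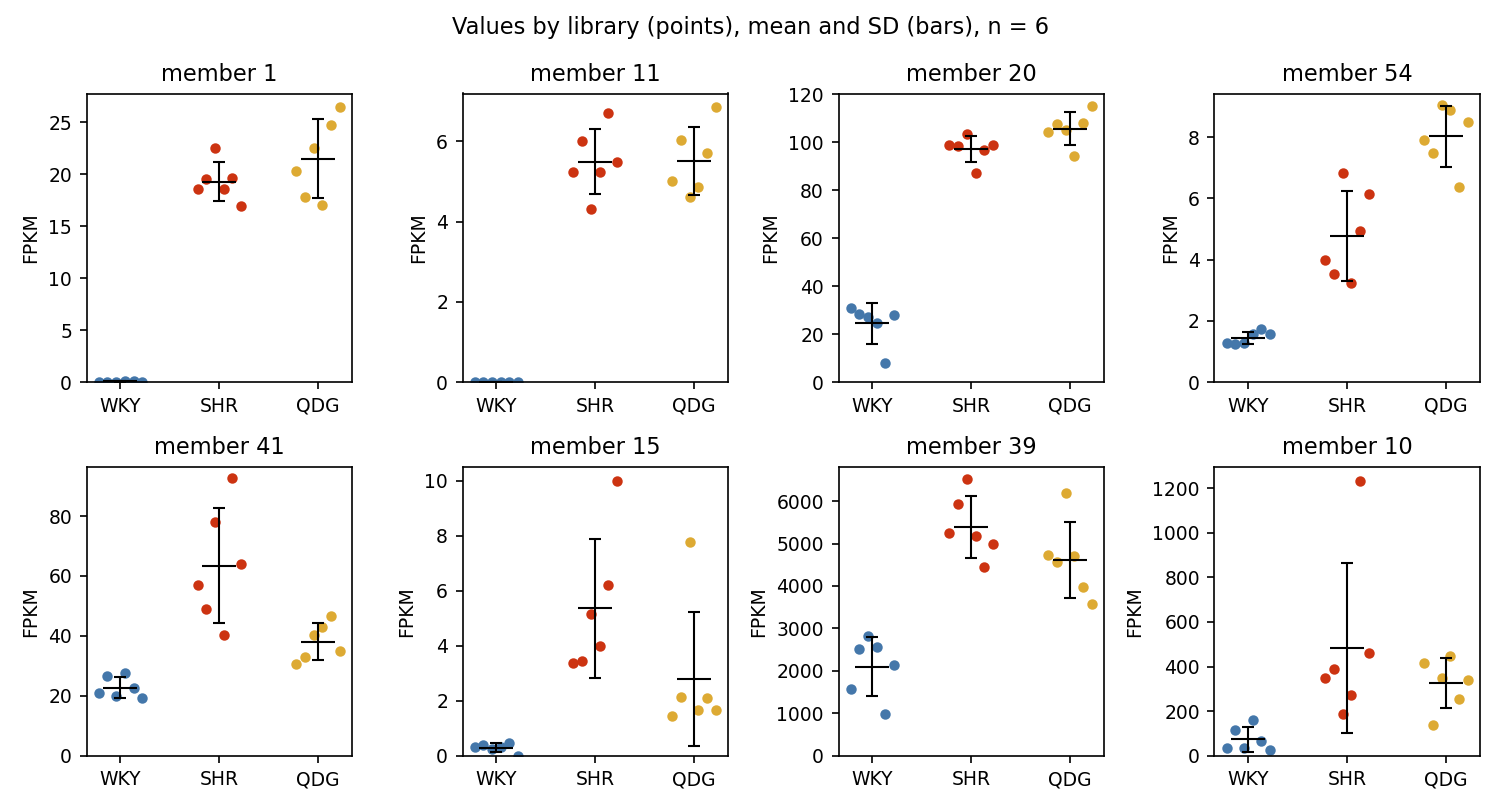
FPKM of 8 members in each library, with 6 points per group (WKY blue, SHR red, QDG yellow) and bars for the mean and SD. Members 1 and 11 sit at or near 0 in WKY, member 20 has 1 low WKY library, member 54 is highest in QDG, and members 41, 15, 39 and 10 have lower QDG means than SHR means.

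The 3 most abundant members by WKY mean were members 39, 45 and 69, and WKY replicate 5 was the lowest library for each. Member 39 was at 1582, 2524, 2822, 2563, 978 and 2140 FPKM in WKY, at 4454 to 6526 in SHR (median 5212) and at 3572 to 6190 in QDG (median 4634). The WKY values of member 45 were 996 to 2708 FPKM, its SHR values 4011 to 5615 and its QDG values 3199 to 5117. The WKY values of member 69 were 438 to 1052 FPKM, its SHR values 1422 to 1904 and its QDG values 1099 to 1825. The ratio of member 39 to member 45 stayed between 0.982 and 1.21 over all 18 libraries, and that of member 45 to member 69 between 2.28 and 3.09. By group, the ratio of member 39 to member 45 was 0.982 to 1.06 in WKY, 1.00 to 1.20 in SHR and 1.12 to 1.21 in QDG. That of member 39 to member 69 was 2.23 to 2.72, 2.71 to 3.64 and 3.14 to 3.39 in the same order. Without WKY replicate 5 the SHR minus WKY difference of member 69 was 0.913, under the threshold of the rule, against 1.08 with it. Those of members 39 and 45 went from 1.43 to 1.23 and from 1.29 to 1.10.

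Member 36 averaged 653 ± 68.8 FPKM across WKY, 1833 ± 183 across SHR and 1667 ± 258 across QDG (SD, n = 6 each), and did not share the low value in WKY replicate 5 (661 FPKM). Member 4 had the largest difference among the abundant members. It was at 106, 180, 122, 144, 96.8 and 123 FPKM in WKY, at 843 to 2194 in SHR (median 1211) and at 577 to 1535 in QDG (median 1188). The summed share of the 80 members in the library total was 1.02% ± 0.282 for WKY, 2.79% ± 0.198 for SHR and 2.35% ± 0.274 for QDG (SD, n = 6 each). Members 39, 45 and 36, the highest in SHR, made up 0.769% ± 0.231, 1.94% ± 0.211 and 1.63% ± 0.234 of the total in the same order (SD, n = 6 each).

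The rule compared no QDG value with another group, although the SHR and WKY libraries set beside QDG were used to choose the members. The filter of 1 FPKM in at least 6 of 18 libraries did count QDG libraries. Members 65 and 66 passed it only with their QDG values counted. For the other members the rule did not fix the QDG level. QDG against SHR and QDG against WKY share the QDG libraries, and each shares a group with the comparison that chose the members. The median member stood 1.38 above WKY in QDG and 1.41 above WKY in SHR, in log2(FPKM + 1). All 6 QDG values lay above all 6 WKY values in 78 of 80 members (97.5%), where 5.83% of all genes kept had that separation. A QDG minus WKY difference of at least 1 was found in 65 members, against 0.793% of all genes kept, and the other 15 members were between 0.63 and 1.00. In all 80 members the QDG minus WKY difference was more than 0.5 times the SHR minus WKY difference.

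With limma, 80 of 80 members were higher in QDG than in WKY (adjusted p from 3.8e-18 to 0.0236), against 11.7% of all genes kept that were called higher. Since the members were chosen for low WKY values, this count is not independent of the rule. Without WKY replicate 5 the largest adjusted p was 0.0410. The largest of these p-values belonged to member 9, whose call was lost without QDG replicate 6 (adjusted p = 0.0556) and with the replicate number as a block (adjusted p = 0.0510).

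The 2 members whose QDG and WKY values overlapped were members 10 and 46. Member 10 was at 34.8, 114, 36.6, 161, 65.9 and 23.4 FPKM in WKY and at 414, 139, 350, 449, 256 and 342 FPKM in QDG, so that QDG replicate 2 fell within the WKY range. In SHR it was at 347, 389, 189, 273, 1234 and 461 FPKM. Member 46 ranged from 0.245 to 1.20 FPKM across WKY, from 1.75 to 5.42 across SHR and from 0.810 to 5.10 across QDG. The highest WKY value of member 46 came from replicate 5, and the other 5 reached at most 0.554 FPKM, below all QDG values. Both members spread widely within each group.

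The comparison of QDG with SHR asked whether treatment moved these genes. The median QDG minus SHR difference over the members was -0.0097 in log2(FPKM + 1), against 0.0174 over all genes kept. It was 0.0487 without SHR replicate 5 and -0.0510 without SHR replicate 4. A difference under 0 was found in 42 members (52.5%) and in 43.0% of all genes kept. After median centring these were 48 members and 51.6% of all genes kept, and without SHR replicate 5 they were 33 members and 41.1%. The rule chose high values in these SHR libraries, which favours a difference under 0 in the members. Members and all genes kept are therefore not a like comparison. QDG means were 52.0% to 168% of SHR means, with a median of 98.3%, and in 40 members the difference was under 0.1 in size. The 95% interval of the difference lay within 1.5-fold either way in 58 members (72.5%, against 92.3% of all genes kept) and within 2-fold in 74 (92.5%, against 97.6%). For the remaining 6 a change of 2-fold on this scale could not be bounded.

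By limma 1 of 80 members was called between QDG and SHR (1.25%), and it was higher; over all genes kept 0.293% were called in either direction, 0.207% higher and 0.0862% lower. At an unadjusted p under 0.05 there were 12 members, 5 higher and 7 lower, where 10.4% of all genes kept fell there (7.05% higher, 3.40% lower). None of the 80 had 6 QDG values clear of the 6 SHR values in either direction, against 0.833% of all genes kept above and 0.316% below.

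The called member, ENSRNOG00000018413 (member 54), was at 1.29, 1.24, 1.27, 1.56, 1.74 and 1.58 FPKM in WKY. In SHR it was at 3.99, 3.54, 6.82, 3.22, 4.94 and 6.13 FPKM and in QDG at 7.91, 7.48, 9.04, 8.90, 6.38 and 8.50 FPKM. Thus 5 of the 6 QDG values were above all SHR values, and QDG replicate 5 was below the highest SHR value. The gene was higher in QDG than in SHR, further from the WKY level, by 0.68 (SE 0.13, 95% interval 0.41 to 0.94, limma adjusted p = 0.0263). The call was lost without SHR replicate 1 (adjusted p = 0.0605), 2 (0.0687) or 4 (0.0565), without QDG replicate 3 (0.0646), 4 (0.0617) or 6 (0.0652), with no filter on low values (0.0633) and with the 12 compared libraries alone (0.0798). The difference stayed between 0.59 and 0.79 in all settings run.

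**Figure D3:**
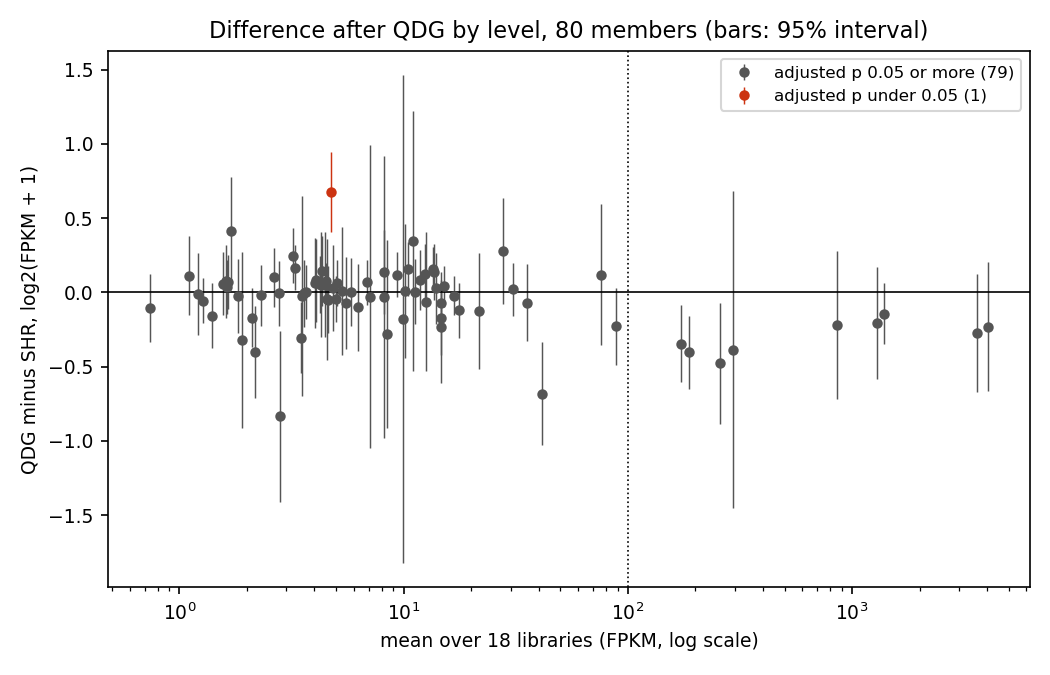
QDG minus SHR difference in log2(FPKM + 1) of the 80 members (points) with 95% intervals (bars) against the mean over 18 libraries in FPKM on a log axis. The dotted line marks 100 FPKM, above which all 9 points lie under 0; the red point is the 1 member with adjusted p under 0.05.

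The lowest QDG minus SHR differences belonged to members 15 and 41, and neither passed the test. ENSRNOG00000001984 (member 15) was at 0 to 0.466 FPKM in WKY and at 3.39, 3.43, 5.14, 3.97, 6.21 and 9.995 FPKM in SHR. In QDG it was at 1.43, 2.13, 7.76, 1.68, 2.08 and 1.65 FPKM. Thus 5 QDG libraries lay below all SHR libraries and QDG replicate 3 lay within them. The difference was -0.84 (95% interval -1.41 to -0.26, limma adjusted p = 0.258), and without QDG replicate 3 it was -1.11 with an adjusted p of 0.0146. That setting leaves out the overlapping library and was the only 1 of 27 with a call (limma adjusted p up to 0.664).

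ENSRNOG00000015036 (member 41) was at 20.8, 26.6, 19.9, 27.5, 22.5 and 19.2 FPKM in WKY. In SHR it was at 56.8, 48.8, 78.1, 40.2, 92.7 and 64.1 FPKM and in QDG at 30.8, 33.1, 40.3, 42.8, 46.7 and 35.0 FPKM. The groups of the SHR strain overlap through SHR replicate 4, and QDG stands clear of WKY. The difference was -0.68 (95% interval -1.03 to -0.33, limma adjusted p = 0.0980), and without SHR replicate 4 it was -0.80 with an adjusted p of 0.0352. Here too the overlapping library is the one left out, and this was the only 1 of 28 settings with a call (limma adjusted p up to 0.217).

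The abundant members all had a lower mean in QDG than in SHR. At a mean of at least 100 FPKM over the 18 libraries, a limit chosen after the values were seen, were 9 members (4, 10, 22, 36, 39, 45, 50, 58 and 69). Their differences ran from -0.48 to -0.14 with a median of -0.28. Over the 510 genes of that level the median was 0.0122, and 43.7% were under 0. The members were chosen for high values in these same SHR libraries, which by itself favours a difference under 0. The 510 genes were not chosen that way and are not a like background. None of the 9 passed the test (limma adjusted p from 0.197 to 0.850). All 9 stayed under 0 without each SHR or QDG library in turn, after median centring and after quantile normalization, with medians from -0.34 to -0.23. Single members came close to 0: member 4 went from -0.22 to -0.04 without QDG replicate 2 and to -0.06 without SHR replicate 5. Leaving out a WKY library cannot change this difference.

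These 9 are not separate measurements of the treatment, since they come from the same libraries and members 39, 45 and 69 varied largely together. The ratios of member 39 to members 45 and 69, given above, did not overlap between WKY and QDG. Member 22 was at 64.3 to 166 FPKM in WKY, at 366, 376, 317, 396, 404 and 478 FPKM in SHR and at 247, 196, 307, 257, 424 and 281 FPKM in QDG. Its QDG values were below the lowest SHR value in 5 of 6 libraries. Member 58 averaged 114 ± 11.5 FPKM across WKY, 256 ± 42.6 across SHR and 193 ± 33.4 across QDG (SD, n = 6 each). Member 50 was at 98.9 ± 13.2, 234 ± 34.6 and 185 ± 33.4 FPKM in the same order (SD, n = 6 each). In the lower classes the members were mixed, with 6 of 12 under 0 below 2 FPKM, 11 of 24 from 2 to under 5, 12 of 28 from 5 to under 20, and 4 of 7 from 20 to under 100.

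Members also differed in how steady they were within a group. The SD of log2(FPKM + 1) within SHR ran from 0.04 to 1.29 over the members, with a median of 0.19 against 0.13 for all genes kept. Within QDG the medians were 0.22 and 0.14, and within WKY 0.18 and 0.15. Member 9 was the least steady in SHR, at 5.42, 20.9, 3.25, 2.15, 27.5 and 11.6 FPKM. In QDG it was at 6.71, 1.16, 2.54, 72.0, 2.31 and 21.4 FPKM, and in WKY it never exceeded 0.804 FPKM. Its QDG minus SHR interval, -1.82 to 1.46, was the widest of the set.

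SHR replicate 5 was often apart from the other SHR libraries. It was the highest SHR library in 31 members (38.8%), and in 27.6% of all genes kept. In 9 members (10, 14, 24, 27, 29, 33, 60, 74 and 75) it stood far above the other 5 by Dixon's criterion, which was 11.2% of the set against 2.58% of all genes kept in which this library was far on either side. No other SHR library was far from its group in any member. The rule chose the members by high SHR values, so a library that runs high can bring genes into the set. These shares are therefore partly built in and are not a like comparison with all genes kept. Member 14 was at 8.11, 3.72, 3.59, 4.68, 45.7 and 6.52 FPKM in SHR and at 5.36, 3.89, 5.11, 15.9, 6.75 and 13.0 FPKM in QDG. Member 29 was at 10.2, 8.12, 4.45, 4.98, 43.4 and 5.10 FPKM in SHR and at 12.8, 3.89, 5.76, 11.8, 6.25 and 17.8 FPKM in QDG. Both peak in SHR replicate 5, and in QDG both are highest in replicates 4 or 6.

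Relative to each member's SHR median, these 9 were at a median of 3.06 in SHR replicate 5 (1.21 to 8.16). The other SHR libraries had medians of 0.712 to 1.15. In QDG the medians ran from 0.694 in replicate 2 to 1.55 in replicate 4, and the highest QDG library was replicate 4 in 6 of the 9 and replicate 6 in 3. Over all genes kept, QDG replicate 4 was the highest of its group in 33.7% and replicate 6 in 11.8%. In WKY, replicate 4 was the highest in 7 of the 9, and in 6.90% of all genes kept. The members were picked for SHR replicate 5, and the WKY and SHR values also chose them as members, so these values are a description. The share of cell types in these libraries was not tested, because no marker gene could be named.

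**Figure D4:**
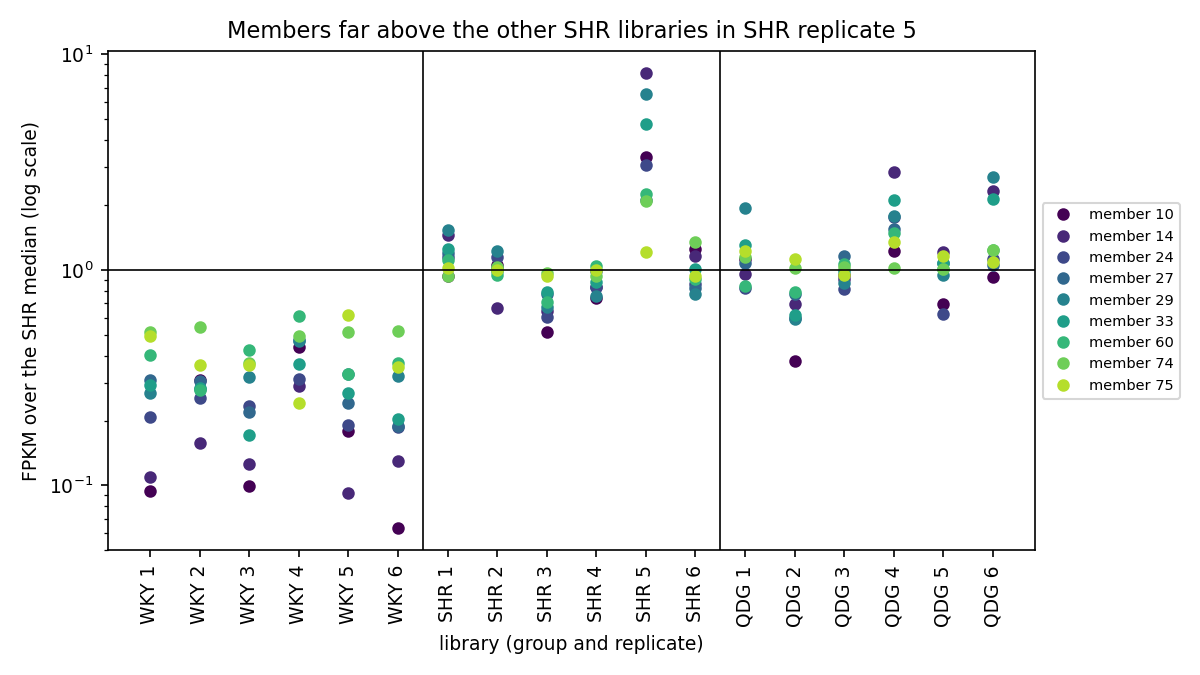
FPKM of the 9 members that stand far above the other SHR libraries in SHR replicate 5, divided by each member's SHR median (log axis), in the 18 libraries (columns). The members were picked by Dixon's criterion on FPKM. Points spread from 1.21 to 8.16 in SHR replicate 5; in QDG replicates 4 and 6 hold the highest values, and all WKY points are under 1, as the rule on WKY and SHR largely fixes.

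Without SHR replicate 5, 74 of the 80 members still met the rule. The 6 that did not (60, 74, 75, 77, 78 and 80) had differences of 0.888 to 0.993. The difference of member 14 went from 2.24 to 1.75, that of member 29 from 1.64 to 1.20 and that of member 10 from 2.77 to 2.44. The QDG minus SHR differences of these members moved up without it, from -0.03 to 0.46 in member 14, from -0.03 to 0.41 in member 29 and from -0.39 to -0.06 in member 10. In 5 of the 9 members far above the rest in this library (14, 29, 33, 60 and 74) the difference turned from under 0 to above 0 without it. Over the 80 members 11 turned that way (13.8%, against 5.21% of all genes kept) and 2 the other way (2.50%, against 3.42%). The rule used SHR replicate 5 to choose the members, so these shares are not like for like either.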

How the data were processed

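Rat heart RNA was measured in 18 libraries, 6 each from WKY, from NS-treated SHR and from QDG-treated SHR. The labels' protocols describe Trizol extraction, removal of rRNA and a NEB library kit. The authors' deposited values carry no unit and are read as FPKM from their range; TPM with genes removed cannot be told apart from it. Library sums ran from 598626 to 676288. Absolute depth is unknown, so no interval from counts is given. Per the submitters' processing notes limma was used, with no version. Aligner, counter, build, annotation and strandedness: not given in the sources used here. Overlapping genes, antisense partners and near-identical copies therefore cannot be told apart.

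Genes at 1 FPKM or more in at least 6 libraries (17397) were fitted as log2(FPKM + 1) with limma 3.58.1 (statmod 1.5.0, R 4.3.3), with an intensity trend, robust moderation, 1 mean per group and a shared spread over the 18 libraries. Two-sided p-values were adjusted by Benjamini-Hochberg over all genes kept, with calls under 0.05; this scale understates changes of low genes. The fit was also run on simulated data with independent noise for each gene and library, which holds no shared library effect. No result of that run is used here. Summaries used Python 3.11.15, pandas 2.3.3 and scipy 1.17.1. The members, lists and tests were chosen with earlier results of these data known.

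Named with values were the 12 members of largest strain difference, the 12 highest in SHR, those called or not overlapping between QDG and SHR, those with all WKY values under 0.1 FPKM, those overlapping WKY in QDG and 3 members at the threshold. Member 15 and those far above the rest in SHR replicate 5 were added after their values were seen. The 22 gene lists and the rule on neighbouring genes could not be applied, as 0 identifiers matched the 47357 reference entries (GRCr8). Alternatives were other pseudocounts (0.1, 0.01), median centring, quantile normalization, other filters, limma without a trend or with array weights, the 12 compared libraries, a replicate block and each library left out.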

Additional observations from a re-analysis of the deposited data

Results flagged for a closer look

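In 10 of 93 groups of 6 values examined for the named members, 1 library stood far from the other 5 by Dixon's criterion. Chance gives about 1 in 20 for normally distributed values. The criterion was applied to FPKM, where high values stand out more than on log2(FPKM + 1), so that rate is not a strict reference. Member 15 was added after its values were seen, and member 46 was named for an overlap that rests on WKY replicate 5. The chance rate therefore does not strictly apply to the named members. Over all 240 groups of the 80 members the count was 27 (11.2%), against 7.27% over all genes kept. Leaving out groups with fewer than 2 values above 0, the counts were 8 of 89 groups for the named members and 25 of 236 (10.6%) for all members, against 7.25% over all genes kept. In WKY, replicate 5 was the far library for the named members that follow. Member 20 was at 7.88 FPKM there and at 24.5 to 30.9 in the others, and member 46 at 1.20 against 0.245 to 0.554. Members 6 and 65 were at 0.0455 and 0.0423 FPKM there with the other 5 listed at 0, where any trace meets the criterion, so the chance rate does not apply. In SHR, member 10 was at 1234 FPKM in replicate 5 and at 189 to 461 in the others. In QDG, member 2 was at 66.4 FPKM in replicate 5 (others 34.7 to 46.5) and member 78 at 4.26 (others 3.51 to 3.68). Member 9 was at 72.0 FPKM in QDG replicate 4 (others 1.16 to 21.4). QDG replicate 3 was high for member 15, at 7.76 FPKM (others 1.43 to 2.13), and low for member 26, at 1.70 FPKM (others 2.40 to 2.82).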

How the results depend on the processing

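The size of the set went from 80 to 140 and 158 genes with pseudocounts of 0.1 and 0.01, which raise the difference of low genes by construction; it was 80 with no filter, 58 with a filter at 5 FPKM, 87 with median centring, 83 with quantile normalization and 78 to 86 without each library in turn. The count of members called between QDG and SHR went from 1 to 0 with no filter on low values and with the 12 compared libraries alone, and was 0 to 1 without each library; the cause was not tested. Called against WKY in QDG were 79 to 80 members without each library, and 78 to 79 did not overlap. The median QDG minus SHR difference was -0.0510 to 0.0487 without each SHR or QDG library. Same-numbered libraries correlated at -0.06 to 0.19, so the numbers were not taken to pair them. The highest correlation of each pair of groups was that of replicate 5 (SHR with WKY 0.158, QDG with SHR 0.126, QDG with WKY 0.188). Why was not tested. A replicate block gave 1 member called between QDG and SHR and 79 between QDG and WKY. Of 862 alternative QDG minus SHR values of 31 named members, 8 lost a call, all in member 54, and 2 gained one, in members 15 and 41; of 862 QDG minus WKY values, 2 lost a call, both in member 9. In none of these did a called value reverse. Depth is unknown, so values listed at 0 give no upper limit.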
